A study of Mus musculus with 34 samples.

Results

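The genes described here are the 9 genes of monoamine synthesis, vesicular storage, reuptake and breakdown: Tph1, Tph2, Ddc, Th, Slc18a1, Slc18a2, Slc6a4, Maoa and Maob. They were taken by symbol, and each was found in all 3 count tables, of 28432, 30351 and 29745 genes. The tables cover 34 RNA sequencing libraries of SCLC (small cell lung cancer, a neuroendocrine cancer) of mouse. The samples test bomedemstat (BOM), which inhibits LSD1, an enzyme that removes histone methyl marks.

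In the tumor table, flank tumors of the line RP-48OVA-LLO190 in immunocompetent mice had received BOM plus anti-PD1 (n = 4), BOM (n = 4), anti-PD1 (n = 5) or vehicle (n = 5) for 16 days by the labels, or 16 to 17 days by the design text. Anti-PD1 is an antibody that blocks an inhibitory receptor of T cells. In the 10 d table, cultures of RP-48OVA-LLO190 had received BOM with IFNg (n = 2), BOM (n = 2), DMSO with IFNg (n = 3) or DMSO (n = 3), with interferon gamma (IFNg) present for the last 48 h. In the 96 h table, the lines RP-116, RP-48 and G8545 each gave 1 BOM and 1 DMSO library (n = 3 lines per treatment). The labels give no strain, sex or age of the mice. Nor do they state that the replicates at 10 d were grown as separate cultures, and the p-values at 10 d then reflect only the spread between these libraries, which may be technical. All tumors and 10 d cultures come from that single line.

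Serotonin is made from tryptophan by a hydroxylase, Tph1 in peripheral and neuroendocrine cells or Tph2 in neurons, and then by the decarboxylase Ddc. The hydroxylases and Th, the tyrosine hydroxylase of catecholamine synthesis, need tetrahydrobiopterin, whose first enzyme is Gch1. Slc18a1 and Slc18a2 (the vesicular transporters VMAT1 and VMAT2) load amines into secretory vesicles, Slc6a4 takes serotonin back up, and the oxidases Maoa and Maob break amines down. Pulmonary neuroendocrine cells store serotonin in their vesicles, and Ddc is a long-used marker of SCLC.

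Total counts per library ranged between 5638353 and 82205546 in the tumors, 5896627 and 9044398 in the 10 d cultures and 8712025 and 9968681 in the 96 h cultures. Vehicle tumors 1 and 2 were the deepest libraries, at 82205546 and 13150056 counts, and stood apart from the other 3 vehicle tumors in several genes below, so calls among the 9 genes against vehicle are also given without them, a choice made after seeing the data. The neuroendocrine markers (9 genes, among them Chga, Chgb, Syp, Calca, Insm1, Uchl1, Ncam1 and Dll3) were all detected in each table. Levels are in CPM, each count scaled to its library total, and fold changes come from edgeR's quasi-likelihood test, called at an adjusted p under 0.05 over all genes of the table. Of the 9 genes, 5 (Tph1, Ddc, Slc18a1, Slc18a2 and Maoa) passed the filter on low counts in every table.

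Tph1 and Ddc are the genes on which the results below turn, 1 for the largest fall and 1 for the highest level, and their promoters are shown for context. Tph1 lies at chr7:46644641-46672537 and Ddc at chr11:11814101-11898144, both on the minus strand (mm10, GENCODE M21), and RefSeq (GRCm38.p6) gives each gene more than 1 start. The sequences run 5′ to 3′ over 250 bases before and 50 after a start, at chr7:46672488-46672787 and chr7:46667328-46667627 for Tph1 and chr11:11890359-11890658 for a Ddc start. Capitals mark matches on either strand to CCAAT, to TGACG (the core of cyclic AMP response elements) or to TATAA.
Tph1 upstream start: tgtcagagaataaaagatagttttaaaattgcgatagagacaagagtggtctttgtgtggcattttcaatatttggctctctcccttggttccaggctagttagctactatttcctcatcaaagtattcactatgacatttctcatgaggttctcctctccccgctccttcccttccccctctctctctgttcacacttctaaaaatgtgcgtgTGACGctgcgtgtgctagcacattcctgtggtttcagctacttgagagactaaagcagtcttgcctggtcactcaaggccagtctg
Tph1 downstream start: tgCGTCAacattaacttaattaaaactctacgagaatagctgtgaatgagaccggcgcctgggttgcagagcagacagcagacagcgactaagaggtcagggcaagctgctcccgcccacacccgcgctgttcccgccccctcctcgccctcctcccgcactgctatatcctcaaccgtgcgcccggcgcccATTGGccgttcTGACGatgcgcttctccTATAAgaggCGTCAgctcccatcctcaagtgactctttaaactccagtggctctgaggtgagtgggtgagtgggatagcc
Ddc start: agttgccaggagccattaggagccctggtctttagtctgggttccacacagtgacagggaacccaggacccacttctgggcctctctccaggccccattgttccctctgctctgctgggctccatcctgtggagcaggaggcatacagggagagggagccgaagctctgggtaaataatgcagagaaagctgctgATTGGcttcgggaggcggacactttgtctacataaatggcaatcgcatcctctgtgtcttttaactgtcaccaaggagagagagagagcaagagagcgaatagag
The downstream Tph1 window held 1 CCAAT, 1 TATAA and 3 TGACG matches, and the upstream window held 1 TGACG match. The Ddc window shown held 1 CCAAT match, and the window of the other Ddc start, at chr11:11898095-11898394, held 1 TATAA match and no CCAAT match. The counts do not show which start was used. Among 32817 promoter windows of the same length, 37.4% held CCAAT, 24.9% TATAA and 20.8% TGACG. No match to the E-box CAGCTG (in 16.3% of windows), to CACGTG (7.15%) or to GTGGGAA (6.39%) was found in these 4 windows.

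In the flank tumors, BOM was accompanied by a near loss of Tph1 transcripts and a smaller fall of Slc18a1, with Ddc retained. Tph1 was 20.1-fold lower in BOM than in vehicle tumors and 23.9-fold lower in BOM plus anti-PD1 than in anti-PD1 tumors. These comparisons share no libraries, although all tumors entered 1 fit. Of the 5 genes tested, 2 were called in BOM versus vehicle tumors, both lower, against 14.5% of all 14332 genes tested. In BOM plus anti-PD1 versus anti-PD1 tumors 3 were called, 2 lower and 1 higher, against 32.4% of all genes.

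Tph1 had 1.26, 0.957, 4.15 and 0.994 CPM in BOM plus anti-PD1 tumors and 2.16, 2.47, 2.59 and 1.02 CPM in BOM tumors. It had 51.3, 49.0, 36.9, 41.7 and 39.8 CPM in anti-PD1 tumors and 12.7, 21.4, 59.8, 58.5 and 56.9 CPM in vehicle tumors. Every BOM-treated tumor lay below every tumor without BOM, and the lowest values without BOM were those of vehicle tumors 1 and 2. The log2 fold change was −4.33 ± 0.51 (SE) for BOM versus vehicle (edgeR adjusted p = 9.32e-05) and −4.58 ± 0.52 for BOM plus anti-PD1 versus anti-PD1 (edgeR adjusted p = 2.79e-05). Without vehicle tumors 1 and 2 the BOM versus vehicle value was −4.83. Without BOM plus anti-PD1 tumor 3, the highest of its group, the value against anti-PD1 was −5.36. BOM-treated tumors held 7 to 32 Tph1 counts each, so their level is known less precisely than that of the other tumors, which held 210 to 1043.

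Slc18a1, which loads amines into vesicles of endocrine cells, had 0.841, 1.67, 2.60 and 2.41 CPM in BOM plus anti-PD1 tumors and 1.75, 1.36, 1.63 and 1.53 CPM in BOM tumors. It had 5.72, 5.38, 5.10, 5.87 and 8.16 CPM in anti-PD1 tumors and 3.36, 4.33, 6.03, 8.28 and 8.39 CPM in vehicle tumors. Again no BOM-treated tumor reached a tumor without BOM. The log2 fold change was −1.93 ± 0.32 (edgeR adjusted p = 0.00146; −2.27 without vehicle tumors 1 and 2) for BOM versus vehicle and −1.71 ± 0.32 (edgeR adjusted p = 0.000694) for BOM plus anti-PD1 versus anti-PD1. Slc18a1 overlaps Atp6v1b2 and Gm15716 on the other strand, and the library kit keeps no strand information, so part of its reads may belong to those genes. Slc18a2, the transporter of neurons and many endocrine cells, did not pass in either comparison. It averaged 9.58 ± 1.41 CPM in BOM plus anti-PD1, 9.98 ± 1.76 in BOM, 10.7 ± 2.06 in anti-PD1 and 10.9 ± 1.21 in vehicle tumors (SD). Its log2 fold change for BOM versus vehicle was −0.13 ± 0.16 (edgeR adjusted p = 0.651), and −0.19 ± 0.16 for BOM plus anti-PD1 versus anti-PD1 (edgeR adjusted p = 0.412).

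Ddc had the highest level of the 9 genes. Per kilobase of transcript its level was 203 CPM in BOM plus anti-PD1, 205 in BOM, 161 in anti-PD1 and 175 in vehicle tumors, against 0.298, 0.333, 7.09 and 6.78 CPM per kilobase for Tph1. Ddc had 956, 865, 765 and 1033 CPM in BOM plus anti-PD1 tumors and 731, 687, 727, 705 and 744 CPM in anti-PD1 tumors, without overlap. The rise was 1.24-fold, with a log2 fold change of 0.31 ± 0.08 (edgeR adjusted p = 0.00631). Ddc had 830, 962, 919 and 956 CPM in BOM tumors and 786, 878, 716, 798 and 735 CPM in vehicle tumors, which overlapped. That difference, 0.22 ± 0.08 on the log2 scale, did not pass the test (edgeR adjusted p = 0.0735). It passed without vehicle tumors 1 and 2 (log2 fold change 0.28, edgeR adjusted p = 0.0251) and with DESeq2 (adjusted p = 0.0274). It also passed without BOM plus anti-PD1 tumor 3 (edgeR adjusted p = 0.0292) or 4 (0.0384), BOM tumor 1 (0.0477) or vehicle tumor 2 (0.0334).

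The ratio of the decarboxylase to the hydroxylase was computed within each tumor, a measure added after the separate values were seen. There were 757, 904, 184 and 1040 Ddc counts per Tph1 count in BOM plus anti-PD1 tumors, 384, 390, 355 and 940 in BOM tumors, 14.3, 14.02, 19.7, 16.9 and 18.7 in anti-PD1 tumors and 62.0, 41.1, 11.98, 13.6 and 12.9 in vehicle tumors. Both BOM groups lay above both groups without BOM. The ratio was 21.3-fold higher in BOM than in vehicle tumors, 36.9-fold higher without vehicle tumors 1 and 2, and 36.4-fold higher in BOM plus anti-PD1 than in anti-PD1 tumors. The ratio holds the same Tph1 counts as above and is given with no test.

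**Figure D1:**
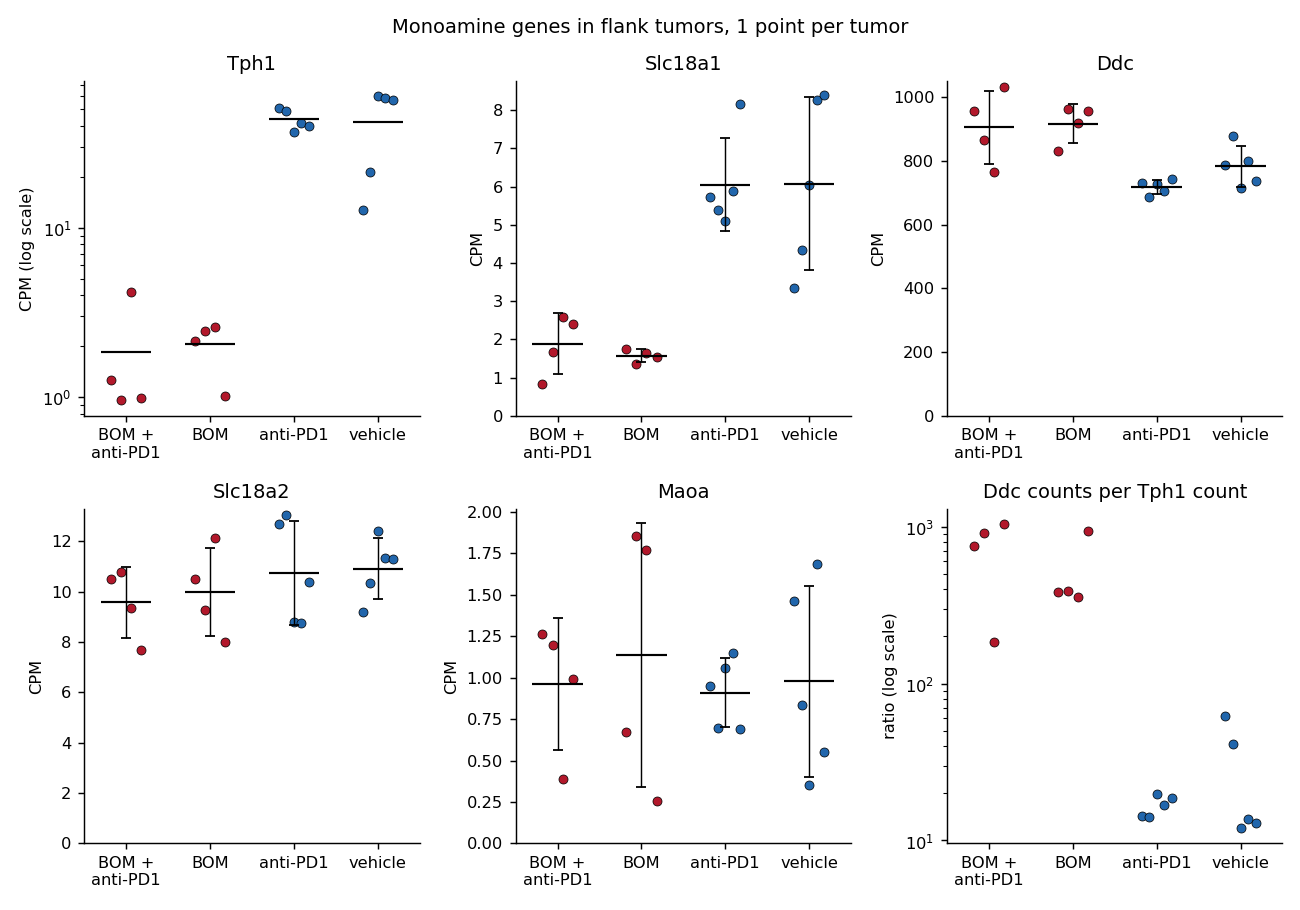
Levels of the 5 tested genes in each flank tumor, in CPM (log scale for Tph1, linear for the rest), and Ddc counts per Tph1 count (log scale), by treatment. Points are tumors in replicate order, horizontal bars are group means and vertical bars, on the linear panels, are SDs (the ratio panel has points only); Tph1 and Slc18a1 of the 8 BOM-treated tumors lie below all 10 others, while Slc18a2 and Maoa overlap between groups.

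Maoa was near 1 CPM in the tumors and did not pass in any tumor comparison. It averaged 0.960 ± 0.397 CPM in BOM plus anti-PD1, 1.14 ± 0.797 in BOM, 0.908 ± 0.208 in anti-PD1 and 0.977 ± 0.576 in vehicle tumors (SD). The other 4 genes lay below the filter on low counts. Tph2 reached at most 1.17 CPM and Maob at most 1.54 CPM in a tumor, Slc6a4 at most 0.920 CPM and Th at most 0.272 CPM. Th was at 0 counts in 16 of 18 tumors. Tph2 lay at 0 to 1.17 CPM in the BOM-treated tumors, 0.528 to 0.794 CPM in anti-PD1 tumors and 0.412 to 1.14 CPM in vehicle tumors.

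None of the 5 genes passed in anti-PD1 versus vehicle tumors by edgeR. Tph1 differed by 0.11 ± 0.36 (−0.41 without vehicle tumors 1 and 2) and Ddc by −0.10 ± 0.07 on the log2 scale in anti-PD1 versus vehicle tumors, with 0% of all genes called. In that comparison 1411 genes had an unadjusted p under 0.05, DESeq2 called 86 genes and limma voom 0. In BOM plus anti-PD1 versus BOM tumors 0.00698% of all genes were called and none of the 5 genes, with Tph1 at −0.14 ± 0.65. The interaction of BOM and anti-PD1 called 0% of genes with edgeR (1258 at an unadjusted p under 0.05; 6 with DESeq2 and 0 with limma voom), and was −0.26 ± 0.74 for Tph1. Against vehicle, Tph1 was lower in BOM plus anti-PD1 tumors (−4.47 ± 0.51, edgeR adjusted p = 0.000108) and so was Slc18a1 (−1.66 ± 0.32, edgeR adjusted p = 0.00574), where 10.7% of all genes were called. These values share the vehicle tumors with BOM versus vehicle. Without vehicle tumors 1 and 2 the values were −4.97 for Tph1 and −2.002 for Slc18a1, and without BOM plus anti-PD1 tumor 3 the Tph1 value was −5.25. The Slc18a1 call was lost when only those groups were fitted (edgeR adjusted p = 0.0717).

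The tumors hold cells other than SCLC cells, and in bulk RNA fewer cells of a type and less RNA per cell cannot be told apart. Mast cells and platelets are the other cells of a tumor best known for serotonin. Of 8 mast cell markers, Kit made up nearly all of the summed level, which was 111 to 131 CPM in BOM plus anti-PD1, 108 to 127 in BOM, 78.3 to 113 in anti-PD1 and 82.3 to 111 in vehicle tumors. Kit was also at 78.6 to 97.4 CPM in BOM and 107 to 150 CPM in DMSO cultures at 96 h, which are cultures of tumor lines. The mast cell carboxypeptidase Cpa3 reached at most 2.10 CPM in a tumor and Tpsab1 was at 0 in every anti-PD1 tumor. Summed platelet markers were at 8.44 to 12.9 CPM in BOM plus anti-PD1, 10.0 to 16.0 in BOM, 6.598 to 19.4 in anti-PD1 and 11.3 to 34.9 in vehicle tumors, which overlap. Summed neuroendocrine markers overlapped as well, at 2635 to 3147 CPM in BOM plus anti-PD1, 2796 to 3247 in BOM, 2923 to 3311 in anti-PD1 and 2877 to 3456 in vehicle tumors. Single neuroendocrine markers did move: of the 9, 6 were called lower and 2 higher in BOM than in vehicle tumors, against 14.5% of all genes. In BOM plus anti-PD1 versus anti-PD1 tumors 4 were called lower, where 32.4% of all genes were called in either direction. Nerve and Schwann cell markers summed to 137 to 145 CPM in BOM plus anti-PD1 and 126 to 148 in BOM tumors, against 162 to 209 in anti-PD1 and 150 to 186 in vehicle tumors. Of these 8 markers, 6 had any counts in the 96 h and 7 in the 10 d cultures of tumor lines. By the same measure, 6 of 6 endothelium markers had counts in the 96 h and in the 10 d cultures. Such counts therefore do not show whether the sum is particular to nerve and Schwann cells, which is not known. The part of any of these cell types in the fall of Tph1 was not tested.

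Around the 9 genes, 90 further genes of the same pathways were examined, in lists of cofactor synthesis, other amine synthesis, breakdown, transport, tryptophan use, receptors and transcription factors. Of these, 45 were tested in the tumors, and 14 were called in BOM versus vehicle, 5 higher and 9 lower. That is 31.1% of those tested, against 14.5% of all genes. Their median log2 fold change was 0.03, against −0.02 over all genes. In BOM plus anti-PD1 versus anti-PD1 tumors 21 were called (46.7%, against 32.4% of all genes), 13 higher and 8 lower, with a median of 0.14 against −0.01 over all genes.

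Of the 8 tetrahydrobiopterin genes 7 were tested, and 2 fell in BOM versus vehicle tumors, where 14.5% of all genes were called. Gch1, the first and limiting enzyme of the cofactor that Tph1 needs, had 19.9, 18.7, 21.0 and 20.4 CPM in BOM plus anti-PD1 and 16.0, 17.5, 17.7 and 17.5 CPM in BOM tumors. It had 42.1, 30.7, 48.7, 44.6 and 42.1 CPM in anti-PD1 and 26.3, 29.0, 35.1, 35.7 and 43.7 CPM in vehicle tumors, so the groups with and without BOM did not overlap. Its log2 fold change was −0.98 ± 0.14 for BOM versus vehicle (edgeR adjusted p = 0.000467) and −1.08 ± 0.14 for BOM plus anti-PD1 versus anti-PD1 (edgeR adjusted p = 5.86e-05). Gchfr, the feedback regulator of Gch1, rose by 1.33 ± 0.32 in BOM plus anti-PD1 versus anti-PD1 tumors (edgeR adjusted p = 0.00404). Against vehicle, Gchfr was not called in BOM or in BOM plus anti-PD1 tumors.

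Of 13 serotonin receptor genes 4 were tested. Htr3a, the channel subunit of the ionotropic receptor, had 18.8, 16.6, 18.6 and 24.1 CPM in BOM plus anti-PD1 and 13.9, 15.6, 15.7 and 15.6 CPM in BOM tumors, against 52.5, 61.3, 54.7, 54.6 and 60.2 CPM in anti-PD1 and 28.4, 38.4, 60.7, 50.4 and 65.6 CPM in vehicle tumors. The log2 fold change was −1.67 ± 0.19 for BOM versus vehicle (edgeR adjusted p = 9.32e-05) and −1.56 ± 0.19 for BOM plus anti-PD1 versus anti-PD1 (edgeR adjusted p = 4.37e-05). Of the inhibitory G protein-coupled receptors, Htr1d fell in the same comparisons (−1.44 ± 0.33 and −1.72 ± 0.33) and Htr1b rose (0.82 ± 0.20 and 1.002 ± 0.21). Htr1b was at 11.0 to 18.8 CPM in BOM plus anti-PD1, 16.0 to 21.5 in BOM, 5.45 to 8.60 in anti-PD1 and 7.27 to 14.1 in vehicle tumors, with the highest vehicle values in tumors 1 and 2.

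Of 17 transcription factors of monoaminergic cells 10 were tested, and 2 fell and 2 rose in BOM versus vehicle tumors, against 14.5% of all genes called. Fev (Pet1), which drives serotonergic genes in neurons, was at 9.33 to 19.5 CPM in BOM plus anti-PD1, 6.99 to 15.9 in BOM, 19.8 to 51.7 in anti-PD1 and 15.5 to 43.0 in vehicle tumors. Its log2 fold change was −1.22 ± 0.34 for BOM plus anti-PD1 versus anti-PD1 (edgeR adjusted p = 0.0105) and −1.24 ± 0.34 for BOM versus vehicle (edgeR adjusted p = 0.0229). The call against vehicle was lost without BOM tumor 1 (adjusted p = 0.0829) or 4 (0.0770), or without vehicle tumor 4 (0.0558) or 5 (0.0688), each by edgeR. Foxa2, an endoderm factor, fell by 0.55 ± 0.14 in BOM versus vehicle tumors (edgeR adjusted p = 0.0154; 0.0555 without BOM tumor 3). Insm1, a factor of neuroendocrine identity, rose by 0.41 ± 0.07 in the same comparison (edgeR adjusted p = 0.00123).

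Breakdown, kynurenine, receptor and transport genes were also called. Aldh3a2, an aldehyde dehydrogenase, was at 64.6 CPM in BOM plus anti-PD1 and 29.8 CPM in anti-PD1 tumors on average (log2 fold change 1.09 ± 0.12, edgeR adjusted p = 2.79e-05). Kyat1, which converts kynurenine to kynurenic acid, was at 50.6 CPM in BOM plus anti-PD1 and 30.0 CPM in anti-PD1 tumors (0.73 ± 0.11, edgeR adjusted p = 0.000208). In BOM versus vehicle tumors the rises were smaller, 1.33-fold for Aldh3a2 and 1.28-fold for Kyat1. On leaving out each tumor, those calls held in 13 and 11 of 18 fits. The dopamine receptor gene Drd4 was at 13.6 to 22.6 CPM in BOM plus anti-PD1 and 3.29 to 6.83 CPM in anti-PD1 tumors (1.78 ± 0.36, edgeR adjusted p = 0.00125). It was at 10.1 to 16.02 CPM in BOM and 2.48 to 14.98 CPM in vehicle tumors, which overlapped (0.65 ± 0.34, edgeR adjusted p = 0.225). Only vehicle tumors 1 and 2, at 11.0 and 14.98 CPM, reached the range of the BOM tumors, and the other vehicle tumors had 2.48, 5.21 and 5.77 CPM. Slc22a3, a low-affinity amine transporter, was at 2.56 to 5.47 CPM in BOM plus anti-PD1 tumors and had 1 count in all anti-PD1 tumors. In vehicle tumors Slc22a3 ranged between 0 and 1.84 CPM. Against vehicle, it was not called in BOM or in BOM plus anti-PD1 tumors.

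**Figure D2:**
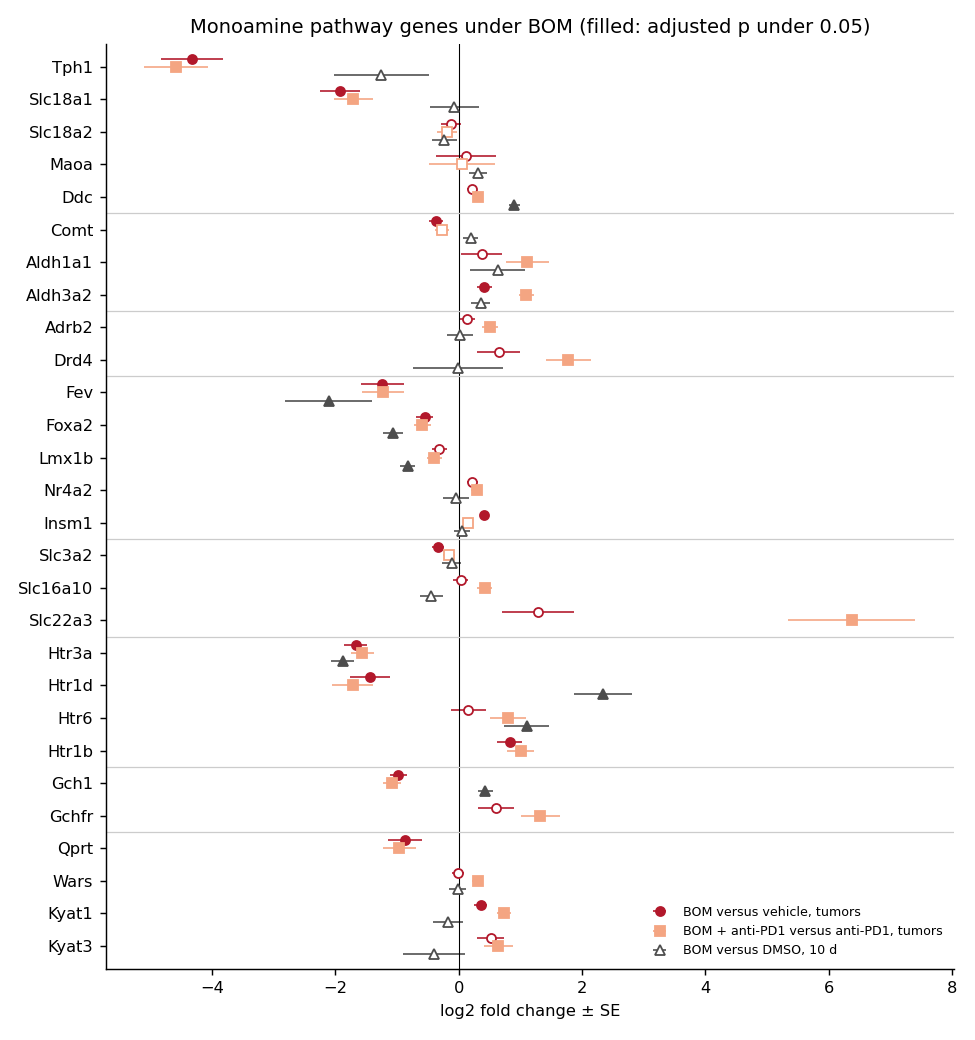
Log2 fold changes (± SE, edgeR) of the 5 tested monoamine genes and of further pathway genes, most of those called in either of the first 2 comparisons shown, for BOM versus vehicle tumors, BOM plus anti-PD1 versus anti-PD1 tumors and BOM versus DMSO at 10 d. Filled symbols passed an adjusted p under 0.05, lines separate the lists, and a missing symbol marks a gene below the filter, and the Slc22a3 value against anti-PD1 rests on 1 count there; Tph1 lies farthest to the left, and Gch1 and Htr1d lie left of 0 in tumors and right of 0 in the cultures.

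In the 10 d cultures, Ddc was higher with BOM, and Tph1 was low in every group. Of the 5 genes tested, 1 was called in BOM versus DMSO, against 20.3% of all 15230 genes. Ddc had 743 and 771 CPM in BOM and 360, 404 and 396 CPM in DMSO cultures. The rise was 1.87-fold, with a log2 fold change of 0.90 ± 0.08 (edgeR adjusted p = 5.24e-07). With IFNg present, Ddc had 674 and 622 CPM in BOM and 372, 365 and 363 CPM in DMSO cultures, 1.69-fold higher (0.76 ± 0.08, edgeR adjusted p = 3.77e-06). All 4 BOM cultures lay above all 6 DMSO cultures. The antisense gene 1700042O10Rik overlaps Ddc, and its reads cannot be told apart without strand, here or in the tumors. The same limit holds for Slc18a2 and Slc6a4, which the antisense genes Gm29261 and Gm12343 overlap.

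Tph1 was the only other call, lower in BOM with IFNg than in DMSO with IFNg, where 23.1% of all genes were called. It had 1 and 9 counts (0.161 and 0.995 CPM) in BOM with IFNg cultures and 19, 24 and 21 counts (2.84, 3.83 and 3.32 CPM) in DMSO with IFNg cultures. The log2 fold change was −2.41 ± 0.65 (edgeR adjusted p = 0.0112), and without BOM with IFNg culture 1 it was −1.77 and did not pass (edgeR adjusted p = 0.112). Without BOM with IFNg culture 2 it was −4.28. Without IFNg, Tph1 had 0.487 and 0.609 CPM in BOM and 0.419, 1.47 and 2.04 CPM in DMSO cultures. These overlapped, and the difference of −1.25 ± 0.77 did not pass (edgeR adjusted p = 0.281).

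IFNg was set against its absence within each drug condition. In DMSO with IFNg versus DMSO cultures, where 2.27% of all genes were called, Tph1 was higher in each of the 3 treated libraries than in any control but did not pass (1.37 ± 0.52, edgeR adjusted p = 0.332). In BOM with IFNg versus BOM cultures, where 2.06% were called, Ddc lay lower without overlap and did not pass either (−0.22 ± 0.09, edgeR adjusted p = 0.401). Maoa had 18.2, 18.04 and 16.7 CPM in DMSO with IFNg and 21.5, 19.2 and 20.01 CPM in DMSO cultures (−0.19 ± 0.14, edgeR adjusted p = 0.833). It had 19.98 and 19.02 CPM in BOM with IFNg and 30.02 and 22.9 CPM in BOM cultures (−0.43 ± 0.16, edgeR adjusted p = 0.293). Maoa did not pass in either comparison, although its groups did not overlap. Groups of 2 or 3 libraries can separate by chance, and the share of all genes without overlap was not counted. None of the 5 genes was called in either comparison. The interaction of BOM and IFNg called 0% of genes with edgeR (725 at an unadjusted p under 0.05; 13 with DESeq2 and 0 with limma voom), with −1.16 ± 1.07 for Tph1 and −0.15 ± 0.12 for Ddc. Wars, the tryptophanyl-tRNA synthetase that IFNg induces, rose by 1.58 ± 0.12 in DMSO with IFNg versus DMSO (edgeR adjusted p = 3.45e-08).

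None of the remaining genes was called at 10 d. Slc18a1 averaged 3.77 ± 1.23 CPM in BOM with IFNg, 3.23 ± 0.255 in BOM, 3.63 ± 0.112 in DMSO with IFNg and 3.23 ± 1.28 in DMSO cultures (SD). Slc18a2 averaged 12.2 ± 1.44 CPM in BOM with IFNg, 13.7 ± 1.05 in BOM, 12.95 ± 1.98 in DMSO with IFNg and 15.4 ± 2.93 in DMSO cultures. Maoa, at 30.0 and 22.9 CPM in BOM and 21.5, 19.2 and 20.01 CPM in DMSO cultures, lay higher without overlap but did not pass (0.32 ± 0.15, edgeR adjusted p = 0.155). Tph2, Th, Slc6a4 and Maob were each at or under 0.958 CPM in every 10 d library.

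**Figure D3:**
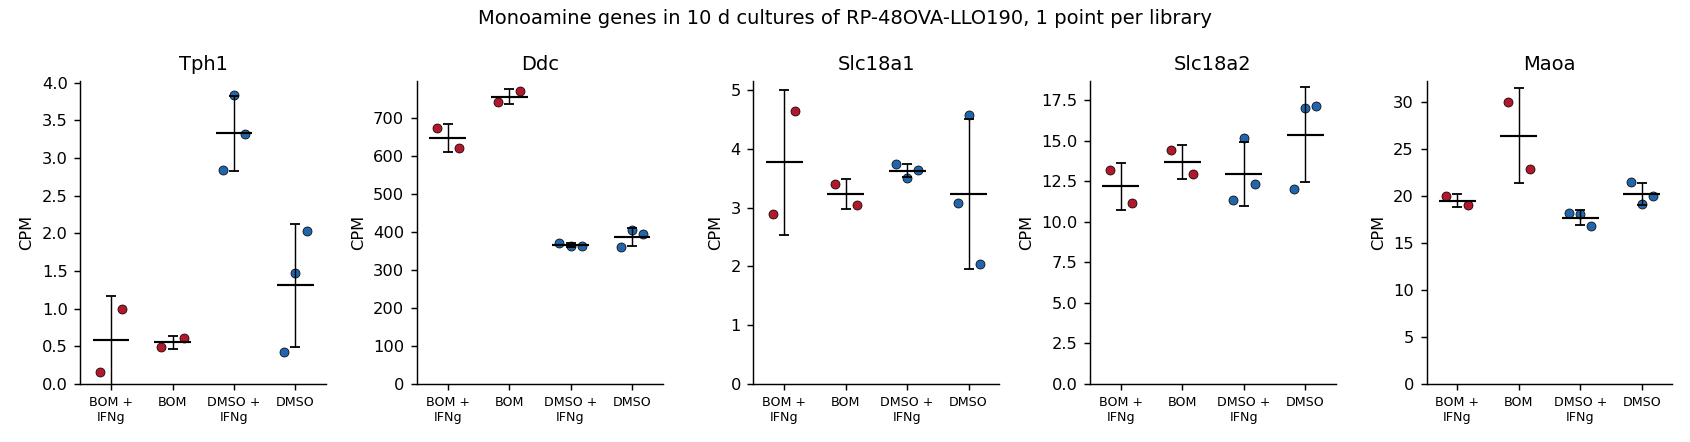
Levels in CPM (linear axes) of the 5 tested genes in each 10 d culture of RP-48OVA-LLO190, by treatment. Points are libraries, horizontal bars group means and vertical bars SDs; Ddc of the 4 BOM cultures lies between 622 and 771 CPM, above all 6 DMSO cultures, and Tph1 is highest in the DMSO with IFNg cultures.

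Of the 90 further pathway genes 48 were tested at 10 d, and 16 were called in BOM versus DMSO, 10 higher and 6 lower (33.3%, against 20.3% of all genes; median log2 fold change 0.03, against −0.01 over all genes). With IFNg present 18 were called, 10 higher and 8 lower (37.5%, against 23.1%; median 0.12, against −0.01). Htr3a had 6.004 and 7.01 CPM in BOM and 23.5, 21.3 and 24.3 CPM in DMSO cultures (−1.88 ± 0.18, edgeR adjusted p = 8.75e-07). With IFNg it had 5.15 and 4.53 CPM in BOM and 26.3, 28.1 and 23.4 CPM in DMSO cultures (−2.49 ± 0.19, edgeR adjusted p = 3.5e-08). Fev had 0 and 1.37 CPM in BOM and 1.95, 3.27 and 3.73 CPM in DMSO cultures (−2.11 ± 0.71, edgeR adjusted p = 0.0435), a call lost without BOM culture 1 (−1.13, edgeR adjusted p = 0.326). It was also lost without BOM with IFNg culture 1 or 2, DMSO culture 2 or 3, or DMSO with IFNg culture 2 or 3 (edgeR adjusted p between 0.0504 and 0.121). Its fall with IFNg present, −3.49 ± 0.77, passed (edgeR adjusted p = 0.00283). Foxa2 (−1.07 ± 0.16) and Lmx1b (−0.83 ± 0.12), a factor of serotonergic neuron development, fell as well.

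Of the cofactor genes 6 were tested at 10 d, and 2 rose in BOM versus DMSO, where 20.3% of all genes were called. Gch1 had 56.3 and 45.6 CPM in BOM and 39.1, 35.0 and 34.1 CPM in DMSO cultures (0.43 ± 0.12, edgeR adjusted p = 0.0191; 0.235 without BOM culture 1, 0.0544 without DMSO culture 2 and 0.0538 without DMSO culture 3). With IFNg it rose by 0.53 ± 0.12 (edgeR adjusted p = 0.00393). Qdpr, which recycles the oxidized cofactor, had 113 and 98.4 CPM in BOM and 47.2, 52.1 and 36.0 CPM in DMSO cultures (1.16 ± 0.14, edgeR adjusted p = 7.99e-06). Htr1d had 10.55 and 3.96 CPM in BOM and 1.68, 0.982 and 1.36 CPM in DMSO cultures (2.33 ± 0.47, edgeR adjusted p = 0.00158; 0.1101 without BOM culture 1). Gch1 and Htr1d thus lay on opposite sides of their controls in cultures and tumors. The difference was not tested, because the tables were made separately and, per the labels, from total RNA at 10 d and polyadenylated RNA in tumors.

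Dbh, which makes noradrenaline from dopamine, had 2.11 and 3.05 CPM in BOM and 0.140, 0.491 and 0.170 CPM in DMSO cultures (3.15 ± 0.70, edgeR adjusted p = 0.00332; 0.0510 without BOM culture 2). Gata2, a factor of sympathetic and other lineages, had 37.5 and 51.2 CPM in BOM and 17.6, 13.9 and 15.6 CPM in DMSO cultures (1.43 ± 0.24, edgeR adjusted p = 0.000251). Neither gene was called in a tumor comparison. Dbh had 9 counts in vehicle tumor 4 and 0 in every other tumor. Gata2 was at 4.19 to 6.81 CPM in BOM and 2.76 to 5.69 CPM in vehicle tumors, which overlapped.

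**Figure D4:**
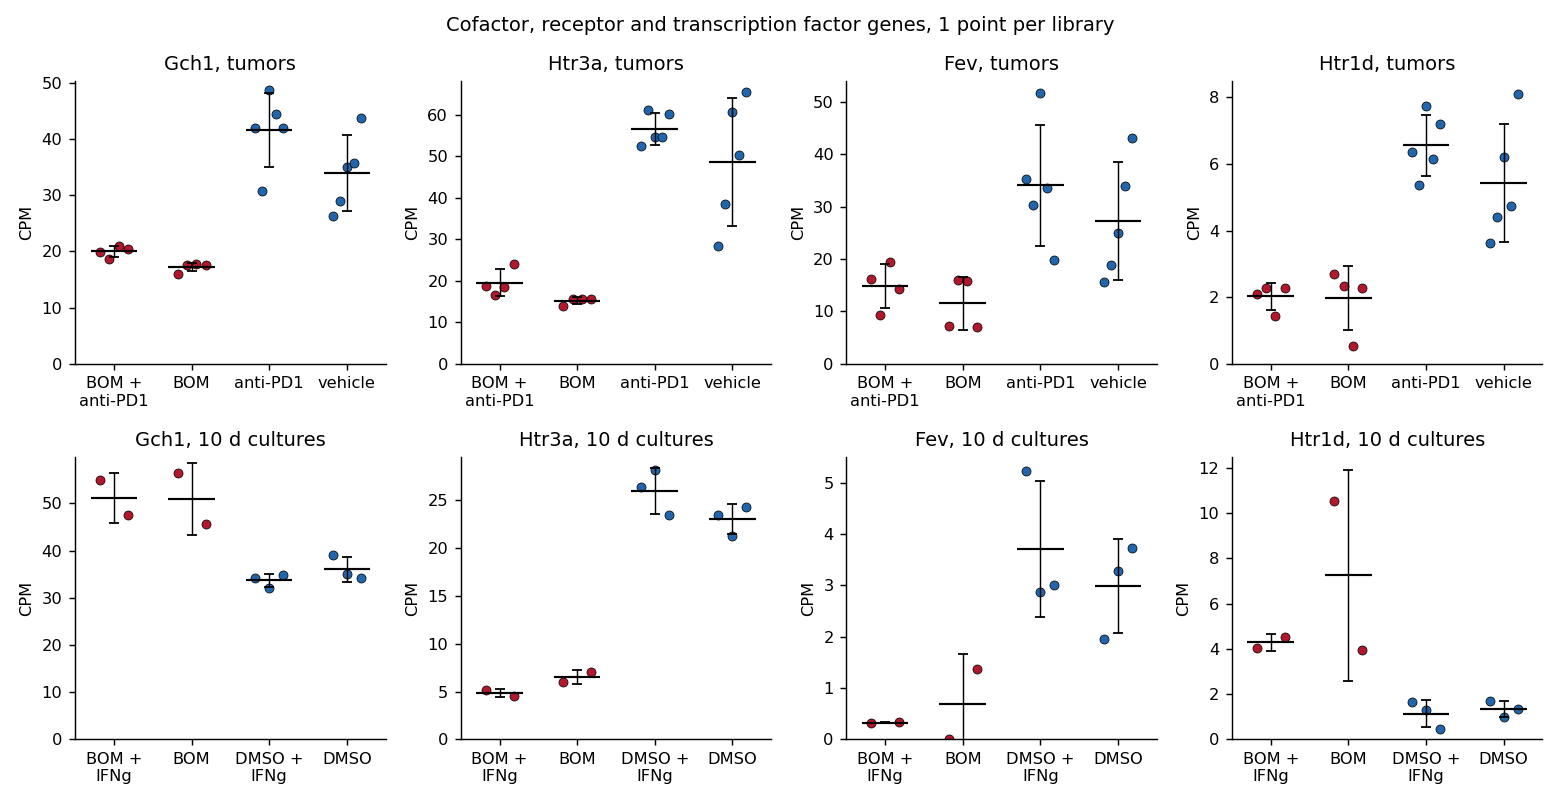
Levels in CPM (linear axes) of Gch1, Htr3a, Fev and Htr1d in each flank tumor (upper row) and each 10 d culture (lower row), by treatment. Points are libraries, horizontal bars group means and vertical bars SDs; Htr3a and Fev are lower with BOM in both rows, and Gch1 and Htr1d are lower with BOM in the upper row and higher in the lower row.

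In the 96 h cultures Tph1, Th, Slc18a1, Maoa and Maob had unlike levels in the 3 lines, and Ddc was high in all of them. None of the 5 genes was called in BOM versus DMSO, and neither was any other gene of the table (0% of 13333; 812 at an unadjusted p under 0.05, 61 called by DESeq2 and 14 by limma voom). Tph1 had 23, 195 and 0 counts in BOM and 37, 331 and 3 counts in DMSO cultures of RP-116, RP-48 and G8545. In RP-48 the ratio of BOM to DMSO was 0.548 (95% interval 0.457 to 0.656, counting error only). Over the lines the log2 fold change was −0.91 ± 0.33, with an unadjusted p of 0.0262 and an edgeR adjusted p of 0.736. Slc18a1 was lower in BOM in 3 of 3 lines, with 7.25, 1.61 and 1.91 CPM in BOM and 10.7, 3.24 and 2.91 CPM in DMSO cultures (−0.72 ± 0.29, edgeR adjusted p = 0.795).

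Ddc was at 1007, 899 and 567 CPM in BOM and 873, 639 and 940 CPM in DMSO cultures of RP-116, RP-48 and G8545. It was higher with BOM in RP-116 and RP-48 and lower in G8545, so that the log2 fold change over lines was −0.02 ± 0.22. Maoa did not pass either (0.07 ± 0.22), and Slc18a2 lay between 6.43 and 8.86 CPM in all 6 libraries. Below the filter, Tph2 had 14 counts (1.40 CPM) in BOM and 5 (0.539 CPM) in DMSO cultures of RP-48 and at most 4 counts elsewhere, and Slc6a4 had at most 2 counts in any 96 h library.

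The lines themselves had different complements of these genes. Each line had 1 BOM and 1 DMSO library, and these served as its replicates. The p-values of the line comparisons therefore do not measure the spread between like-treated cultures of a line. G8545 versus RP-48 gave 2 calls among the 5 genes, against 21.0% of all genes. Tph1 averaged 0.151 CPM in G8545 and 27.6 CPM in RP-48, with 3 and 526 counts in all, a ratio of 0.00552 (95% interval 0.00113 to 0.0162, counting error only; edgeR adjusted p = 0.000108). Maoa averaged 39.2 CPM in G8545 and 2.54 CPM in RP-48, 14.6-fold higher (3.86 ± 0.29, edgeR adjusted p = 0.000122). Maob, below the filter, had 58 and 22 counts in the BOM and DMSO libraries of G8545 and 1 and 0 in those of RP-48. G8545 thus had more of both oxidases and less of the hydroxylase than RP-48.

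RP-116 versus the mean of RP-48 and G8545 also gave 2 calls among the 5 genes, against 35.8% of all genes. Slc18a1 averaged 8.96 CPM in RP-116, against 2.42 CPM in RP-48 and 2.41 CPM in G8545 (2.004 ± 0.28, edgeR adjusted p = 0.00116). Maoa, at 5.47 CPM in RP-116, passed narrowly as lower than the mean of the other lines (−0.77 ± 0.25, edgeR adjusted p = 0.0412), although it lay above RP-48, and not with DESeq2 (adjusted p = 0.0722). Without any single library of RP-116 or RP-48 that call was lost (edgeR adjusted p between 0.0798 and 0.275). Th had 41 and 44 counts in the BOM and DMSO libraries of RP-116, 2 and 0 in those of RP-48 and 0 and 1 in those of G8545. Per kilobase, Tph1 ordered the lines as RP-48 (4.48 CPM), RP-116 (0.555) and G8545 (0.0244), while Ddc at 172, 211 and 169 CPM per kilobase in the same lines did not separate them beyond the spread between treatments. Without the G8545 DMSO library, Ddc passed in RP-116 (0.69, edgeR adjusted p = 0.000104) and in G8545 versus RP-48 (−0.66, edgeR adjusted p = 0.00907).

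**Figure D5:**
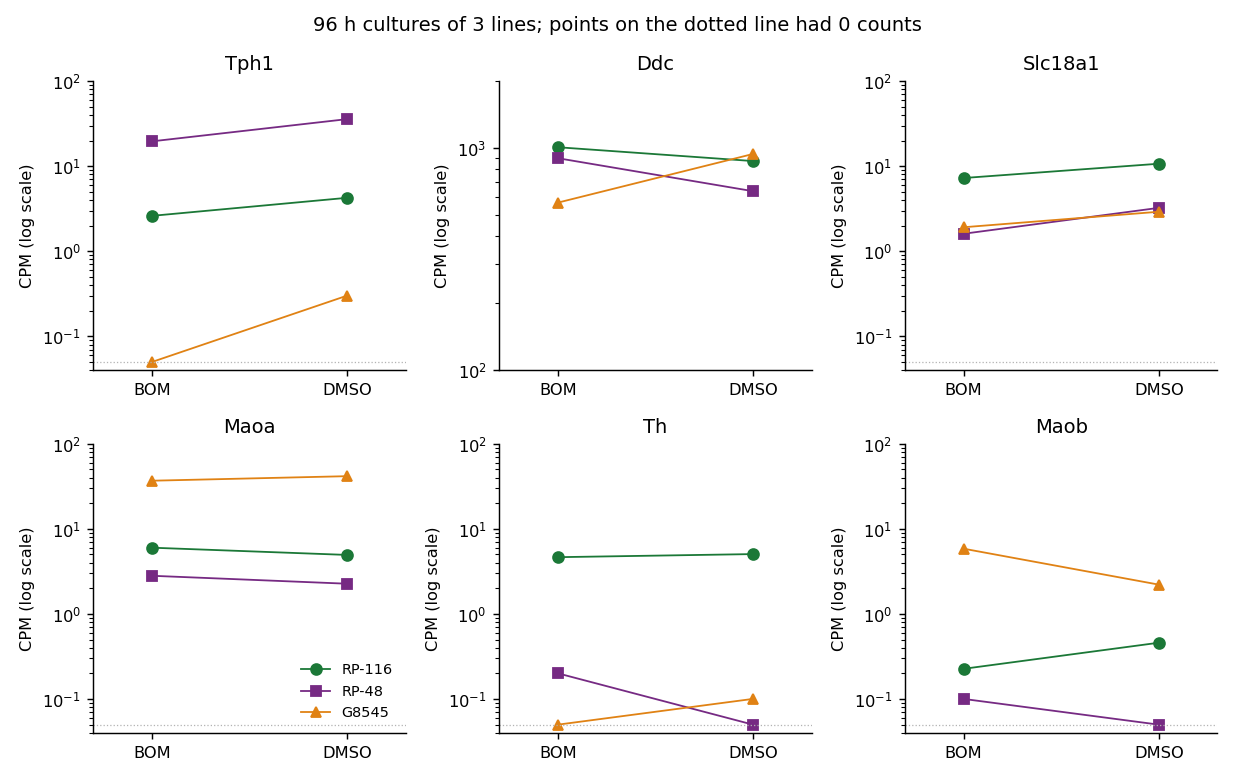
Levels in CPM (log axes) of Tph1, Ddc, Slc18a1, Maoa, Th and Maob in the BOM and DMSO library of each line at 96 h, joined by line. Points on the dotted line had 0 counts; Tph1 is highest in RP-48, Th in RP-116 and Maoa and Maob in G8545, and the Ddc lines cross.

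Cultures of RP-48 and of RP-48OVA-LLO190 had unlike Tph1 levels. Tph1 was at 19.6 CPM in BOM and 35.7 CPM in DMSO in RP-48 at 96 h, while the RP-48OVA-LLO190 cultures at 10 d averaged 0.548 ± 0.0867 CPM in BOM and 1.31 ± 0.821 CPM in DMSO (SD). Tumors of RP-48OVA-LLO190 averaged 2.06 ± 0.717 CPM in BOM and 41.9 ± 22.9 CPM in vehicle. The 3 tables differ in RNA selection, time and growth and were counted separately, so no test was made across them.

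Genes whose log2 CPM followed each of these genes most closely over the 18 tumors were listed as a description. The treatments enter these correlations, since the tumors with and without BOM are included together. For Ddc they were Setd4, Dmrt2 and Obsl1 (Pearson's r of 0.916, 0.916 and 0.915). For Slc18a2 they were Scml2, Inpp5f and Atp2c1 (0.834, 0.834 and 0.823). For Tph1, added after its values were seen, they were Cntn4, Aldh1a2 and Tll1 (0.978, 0.977 and 0.971). Slc18a1 and Maoa were too low in tumors for this list.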

How the data were processed

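The authors deposited 3 tables of raw counts per gene, 1 per experiment. Per the submitters' processing notes, bcl2fastq, FastQC 0.11.9, STAR 2.7, featureCounts, Subread 2.0 and build mm10 were used. The settings are not given in the sources used here. The labels name a kit that does not mark strand. Every column was used in the group its label gives. CPM was computed as the count scaled by the library total over all genes.

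Each table was analyzed alone in R 4.3.3 with edgeR 4.0.16: filterByExpr by group, TMM scaling, the quasi-likelihood F-test and Benjamini-Hochberg adjustment over all genes tested in the table. This left 13333, 15230 and 14332 genes in the 96 h, 10 d and tumor tables. The design held line and treatment at 96 h (2 residual degrees of freedom) and the 4 groups of the 10 d and tumor tables (6 and 14). Alternatives used DESeq2 1.42.0, limma 3.58.1, other scalings and filters, a replicate block and the omission of each library. Ratios of counts between libraries carry exact binomial 95% intervals, which cover counting error only. Prior count 2 was used for log2 CPM. The code was tested on simulated data.

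The 9 genes and the pathway and marker lists were chosen with earlier results of these data known. The rule for named genes took all 9 genes and, of each pathway list, the called genes, at most the 3 with the lowest p; not all of these are printed, and some genes are not reported here. Groups counted as paired by replicate number only if they shared at least 3 numbers. Among 10 d groups only DMSO with IFNg and DMSO could therefore count (correlations of deviations 0.125 to 0.480), as a hint from the data. Comparisons with a BOM group at 10 d had 2 pairs each, with correlations of 0.0501 to 0.270, so their pairing was not decided. In the tumors no groups counted as paired.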

Additional observations from a re-analysis of the deposited data

Results flagged for a closer look

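Among 27 groups of 4 or 5 tumors (1 gene in 1 treatment, with at least 10 counts in all), 4 held a tumor far from the rest by Dixon's criterion, which chance meets in about 1 in 20 groups. Tph1 in BOM plus anti-PD1 tumor 3 was at 4.15 CPM, with the others of its group at 0.957 to 1.26 CPM. Tph2 in BOM plus anti-PD1 tumor 2 was at 0.120 CPM, with the others at 1.12 to 1.17 CPM. Slc18a1 in anti-PD1 tumor 5 was at 8.16 CPM, with the others at 5.10 to 5.87 CPM. Slc6a4 in vehicle tumor 4 was at 0.920 CPM, with the others at 0 to 0.137 CPM.

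Ddc at 96 h moved in opposite directions between lines: the log2 ratio of BOM to DMSO was 0.21 in RP-116, 0.49 in RP-48 and −0.73 in G8545. Each rests on 1 library per treatment, so the difference between lines was not tested.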

How the results depend on the processing

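The 14 calls among the 5 tested genes gave 298 values under the alternatives; none changed direction, 291 kept the call, and 11 of the 14 calls held throughout. The lost calls were Slc18a1 in BOM plus anti-PD1 versus vehicle tumors when only those groups were fitted, Tph1 in BOM with IFNg versus DMSO with IFNg without a single library, and Maoa in RP-116 with DESeq2 and without any of 4 libraries. In number, the genes called in BOM plus anti-PD1 versus vehicle tumors were 2, and 1 with only those groups. For RP-116 versus the other lines they were 2, and 1 with DESeq2 and 1 to 4 on leaving out each library. For BOM with IFNg versus DMSO with IFNg they were 2, and 1 to 2 on leaving out each library. The causes were not tested.

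Of 1143 values of uncalled results, 13 passed. Ddc rose in BOM versus vehicle tumors with DESeq2, without any of 4 single tumors and without vehicle tumors 1 and 2 together, and in BOM plus anti-PD1 versus vehicle without BOM plus anti-PD1 tumor 3, vehicle tumor 2 or vehicle tumors 1 and 2. At 96 h, Ddc passed in RP-116 without the filter, and without the G8545 DMSO library Ddc passed in both line comparisons and Tph1 in RP-116, the last against a G8545 left with 1 library at 0 Tph1 counts and an RP-48 whose CPM was higher than that of RP-116. The calls of all genes in BOM versus vehicle tumors numbered 2082, and 3363 without vehicle tumors 1 and 2, a setting added after seeing the data. In BOM plus anti-PD1 versus vehicle they numbered 1539, 3284 without those tumors and 83 with only those groups. At 96 h the number of genes called in BOM versus DMSO was 0, and 310 without the filter and 0 to 186 on leaving out each library. Of 82 calls among further pathway genes outside the line comparisons, 43 held under every alternative and none changed direction; the 28 such calls in RP-116 and 12 in G8545 versus RP-48 were not recomputed.

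With a replicate block no call among the 5 genes changed. Tph1 was then −4.16 in BOM versus vehicle, and 1.43 in DMSO with IFNg versus DMSO (edgeR adjusted p = 0.129), the only groups that met the rule for pairing. Depth limits Tph1 in BOM-treated tumors, at 7 to 32 counts, and Tph2, Th, Slc6a4 and Maob lay below the filter. Without it Th passed in RP-116 (edgeR adjusted p = 5.66e-11) and Maob in G8545 versus RP-48 (edgeR adjusted p = 1.24e-06).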
